A study of Mus musculus with 6 samples.

Results

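RNA of 9 genes of coagulation, fibrinolysis and the thrombospondin family was compared between *Txnip*-/- and WT liver sinusoidal endothelial cells (LSECs). The genes were taken by symbol from the 23282 rows of each count file, and each of the 9 matched 1 row: the procoagulant genes *F3*, *F8* and *Vwf*, the anticoagulant genes *Tfpi*, *Thbd* and *Procr*, the plasminogen activator genes *Plat* and *Plau*, and *Thbs1*. LSECs of 2 genotypes were sequenced with 3 libraries each, by a 3′ end method (QuantSeq) that primes at the polyadenylated end. Levels were therefore not divided by transcript length. A count is a read and not a transcript. Multiply aligned reads are included and no molecular identifiers are named, so levels of different genes compare only roughly. The *Txnip*-/- mice carried a whole-body deletion on a C57BL/6J background and the WT mice were C57BL/6J, so the deletion was not limited to endothelium. The cells of both genotypes came from collagenase-perfused livers by density gradient and CD146 magnetic beads. The mice were kept on standard chow. The sources used here give no age, sex or culture time for the sequenced cells, and do not say whether each library came from its own mouse. Levels are given as CPM, counts scaled to a common library total with edgeR's TMM factors. P-values measure the spread between these libraries.

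Coagulation starts when tissue factor, encoded by *F3*, meets plasma factor VII, and it is amplified by factor VIII (*F8*), which circulates bound to von Willebrand factor (*Vwf*). Endothelium restrains it through tissue factor pathway inhibitor (*Tfpi*), which blocks the initiating complex, and through thrombomodulin (*Thbd*) and the endothelial protein C receptor (*Procr*), which turn thrombin towards the activation of protein C. Clots are dissolved by plasmin, which is made from plasminogen by tissue-type (*Plat*) and urokinase-type (*Plau*) activators. LSECs are known as the main source of factor VIII in the body and, unlike the endothelium of larger vessels, keep little von Willebrand factor. *Thbs1* encodes thrombospondin-1, a matrix glycoprotein that restrains angiogenesis through CD36 and CD47 and can activate latent TGF-β.

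*Thbs1* rose 1.91-fold and *F8* fell to 0.70 of the WT level in *Txnip*-/- LSECs, and these were the genes of the 9 that passed an adjusted p of 0.05 with a change beyond 1.3-fold in edgeR's quasi-likelihood test. *Vwf* had too few counts to be tested, and the other 6 genes were not called. One of the 8 tested genes was thus called higher, against 0.509% of the 11583 genes tested in these libraries, and 1 lower, against 0.932%, or 2 in either direction, against 1.44% (1.55% by the adjusted p alone). By an unadjusted p under 0.05 with the same change, 4 of the 8 passed, *F3* and *Plau* in addition, against 7.49% of all genes. The genotypes did not overlap in 5 of the 8 genes, *Thbs1*, *F3* and *Procr* higher and *F8* and *Plau* lower in every *Txnip*-/- library, where 17.4% of all tested genes had no overlap in either direction (8.43% higher, 8.94% lower). The 8 log2 fold changes had a median of 0.090, against 0.000 over all tested genes rounded to 3 decimals, with 4 above and 4 below 0. The 9 genes were chosen with earlier results of these data known, among them the rise of *Thbs1*. The shares above are thus descriptions and no evidence of an excess.

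**Figure D1:**
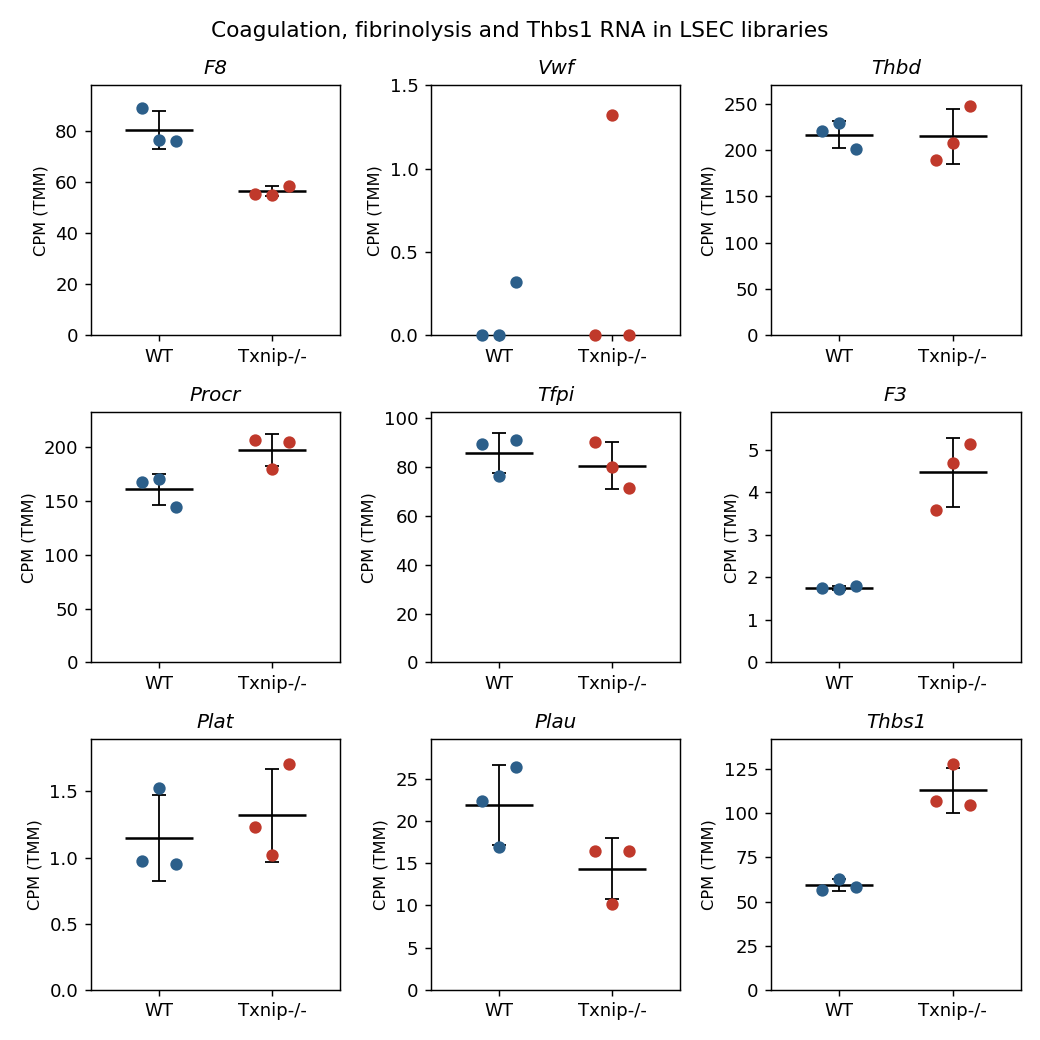
Level of each of the 9 genes in CPM, with 1 point per library, a line at the mean and bars of 1 SD (n = 3 per genotype, points alone for *Vwf*). Each panel has its own axis from 0. The 3 *Txnip*-/- points of *Thbs1* lie between 105 and 128 CPM and the 3 WT points between 56.7 and 62.9 CPM, while those of *F8* lie between 54.8 and 58.5 CPM and between 75.8 and 88.9 CPM.

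The libraries held 9147764 to 10193952 counts, of which the 9 genes together took 0.0585% to 0.0690%. *Txnip* itself had 191 to 269 counts in the *Txnip*-/- libraries against 1901 to 2019 in WT, as the labels have it. All 6 endothelial markers (*Pecam1*, *Cdh5*, *Kdr*, *Tek*, *Tie1*, *Mcam*) were detected in each library, and their summed level was 2331 to 2594 CPM in *Txnip*-/- and 2406 to 2889 CPM in WT LSECs. The 8 LSEC markers also were, with summed levels of 2267 to 2787 CPM in *Txnip*-/- and 2557 to 4847 CPM in WT LSECs. *Lyve1* made up most of this sum, at 1475 to 1976 CPM in *Txnip*-/- and 3482, 3780 and 1520 CPM in WT replicates 1, 2 and 3. The 6 markers of capillary or large-vessel endothelium summed to 675 to 709 CPM in *Txnip*-/- and 584 to 622 CPM in WT LSECs, without overlap, and *Rspo3* was called higher (log2 fold change of 1.35, edgeR adjusted p = 0.00302). *Apln* made up most of that sum, with means of 526 CPM in *Txnip*-/- and 455 CPM in WT LSECs. The log2 fold changes of 3 of the 6 were above 0, and those of 3 were below, *Cd34* (-0.66), *Emcn* (-0.21) and *Selp* (-0.035). Markers of other liver cells were present as well. The 8 Kupffer cell genes summed to 152 to 161 CPM in *Txnip*-/- and 391 to 417 CPM in WT libraries, and 6 of the 7 tested were called lower. The 6 stellate cell genes summed to 36.3 to 45.2 CPM and 19.8 to 23.9 CPM, with *Dcn* called higher, the 8 hepatocyte genes to 59.1 to 62.2 CPM and 48.2 to 54.3 CPM, and the 6 platelet genes to 18.7 to 26.8 CPM and 14.4 to 19.2 CPM, with *Gp9* at 0 counts throughout. The neutrophil, lymphocyte, cholangiocyte and lymphatic lists each summed to at most 4.77 CPM in any library. In such bulk samples, fewer cells of a type and less RNA per cell cannot be told apart. WT replicates 1 and 2 differed from the remaining 4 libraries in having 10.03% and 9.68% of their counts on the ribosomal RNA row *Rn45s* against 16.8% to 18.6%, so values with WT replicate 3 as the only reference are also given for *F8* and *Procr*.

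For the 5 genes whose genotypes did not overlap, RefSeq promoters (GRCm38.p6, 250 bases before to 50 after the start site) were at hand for *F8*, *Procr* and *F3*, and they are shown because their RNA was called or separated the genotypes. They lie at chrX:75379992-75380291 on the minus strand, chr2:155750967-155751266 on the plus strand and chr3:121723287-121723586 on the plus strand. Capitals mark matches on either strand to the letters TGANTCA of AP-1, the dimer of Fos and Jun proteins, and to the NF-kB letters, GGG, then any 5 bases, then CC.
*F8*: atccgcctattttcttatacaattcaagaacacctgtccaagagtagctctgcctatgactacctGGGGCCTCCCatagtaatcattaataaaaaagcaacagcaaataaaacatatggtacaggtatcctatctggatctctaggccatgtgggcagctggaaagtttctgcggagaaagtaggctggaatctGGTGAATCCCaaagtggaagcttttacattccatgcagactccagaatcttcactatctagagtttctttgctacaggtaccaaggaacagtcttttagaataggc
*Procr*: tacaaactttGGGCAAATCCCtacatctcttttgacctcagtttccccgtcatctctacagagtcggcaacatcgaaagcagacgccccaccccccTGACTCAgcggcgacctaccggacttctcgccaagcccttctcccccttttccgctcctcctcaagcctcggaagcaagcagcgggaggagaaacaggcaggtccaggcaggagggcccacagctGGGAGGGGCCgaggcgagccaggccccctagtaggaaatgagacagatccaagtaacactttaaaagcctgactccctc
*F3*: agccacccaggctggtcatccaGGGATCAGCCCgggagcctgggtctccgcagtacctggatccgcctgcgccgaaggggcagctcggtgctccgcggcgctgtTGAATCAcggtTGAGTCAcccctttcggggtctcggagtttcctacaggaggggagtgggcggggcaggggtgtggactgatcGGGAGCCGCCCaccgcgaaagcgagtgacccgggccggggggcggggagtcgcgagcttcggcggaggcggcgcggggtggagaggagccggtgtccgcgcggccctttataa
The *F3* promoter held 2 AP-1 matches, whose first bases lie at -146 and -135 from the start site, and the *Procr* promoter held 1, at -154, while 7.81% of the 32851 mouse promoters of this length in the table held any. The *F8* window, which lies inside the gene's annotated span and short of its outer 5′ end at 75382615, held none. The looser NF-kB letters, present in 50.8% of all promoters, were matched in all 3, with first bases at -185 and -56 in *F8*. Of the other motifs searched, KLF (CCNCNCCC, 49.5% of promoters) was matched in *Procr* and *F3*, where some of its matches overlap those of NF-kB or of the GC box. The GC box (GGGCGG) is held by 35.7% of promoters and was matched in *F3*. The TATA box (TATAAA) is held by 13.6% and was matched in *F3* as well, on the opposite strand and after the start site. ETS (GGAANT) is held by 53.4% and was matched in *Procr*. The E-box (CACGTG), held by 7.15%, was matched in none of these promoters. The G and C content was 42.3% in *F8*, 58.3% in *Procr* and 70.3% in *F3*. A match is a run of letters and was not tested for binding. The 3 genes were picked by their RNA values, and a link of motifs to the direction of change was not tested.

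*F3* (chromosome 3 of GRCm38, 121723537 to 121735048) is the gene that starts coagulation, and it was scarce in these cells. It held 32, 46 and 48 counts in *Txnip*-/- replicates 1, 2 and 3, against 18, 18 and 17 in the WT replicates. The genotypes did not overlap. The WT libraries were almost equal, with a spread smaller than counting error at such counts, so their SD understates the uncertainty. The part of other cell types, whose markers are given above, was not tested. The level was 4.46 ± 0.80 CPM in *Txnip*-/- and 1.75 ± 0.042 CPM in WT LSECs (SD, n = 3 each), a log2 fold change of 1.34 with a 95% interval of 0.28 to 2.40. The change did not pass (unadjusted p = 0.0164, adjusted p = 0.283, edgeR), and with an adjusted p it passed under none of the alternatives that kept the gene, where the log2 fold change stayed between 1.23 and 1.48.

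*F8* (chromosome X, 75172715 to 75382615), which encodes the cofactor of factor IX, held 496, 538 and 547 counts in *Txnip*-/- replicates 1, 2 and 3, against 913, 801 and 717 in the WT replicates. In CPM these were 55.4, 54.8 and 58.5 against 88.9, 76.3 and 75.8. The highest *Txnip*-/- library lay below the lowest WT library, and WT replicate 1 was the highest of all. Its mean level fell from 80.3 ± 7.39 to 56.2 ± 1.96 CPM (log2 fold change of -0.51 with a standard error of 0.12 and a 95% interval of -0.76 to -0.27, edgeR adjusted p = 0.0296). The direction was kept in each alternative, but the call was not. Leaving out *Txnip*-/- replicate 1, 2 or 3 gave adjusted p = 0.128, 0.123 and 0.0805, and leaving out WT replicate 1 or 2 gave 0.245 and 0.0836, while without WT replicate 3 it was 0.0120 (edgeR). With WT replicate 3 alone as the reference, through a term for WT replicates 1 and 2, the log2 fold change was -0.43 (adjusted p = 0.174, edgeR). The reference is then 1 library, assumed to vary like the others, so this p says little about the call. The LSEC markers *Stab1* and *Mrc1* were called lower in the same libraries (log2 fold changes -0.46 and -0.76), while *Stab2* (-0.36) and *Clec4g* (-0.14) were not called. The means of all 8 markers of that list were below WT, with a median log2 fold change of -0.43. The Kupffer cell genes given above were lower as well. The 6 capillary and large-vessel markers given above were higher in sum, but only 3 of them were higher and 3, *Cd34* among them, were lower. The part of other cell types in the *Stab1* and *Mrc1* values, and of any of these lists in the *F8* value, was not tested.

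*Vwf* (chromosome 6, 125546774 to 125686679), the carrier of factor VIII and the tether of platelets, was almost undetected. The *Txnip*-/- libraries had 0, 13 and 0 counts and the WT libraries 0, 0 and 3. The count was thus 0 in 4 of the 6 libraries, where a count of 0 allows up to 3 counts, or 0.286 to 0.335 CPM at these depths, by counting error alone. *Txnip*-/- replicate 2 was the only library above that floor, so no difference between the genotypes was detectable for *Vwf* at this depth. *Selp*, P-selectin, which is stored with VWF in endothelial granules, was low too, at 3.46 CPM in *Txnip*-/- and 3.54 CPM in WT LSECs.

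Among the anticoagulant genes, *Thbd* and *Procr* were the most abundant of the 9. *Thbd* (chromosome 2, 148404466 to 148408188, 1 exon), the thrombin receptor that opens the protein C pathway, held 1698, 2034 and 2310 counts in *Txnip*-/- LSECs, against 2263, 2401 and 1895 in WT LSECs. In CPM these were 190, 207 and 247 against 220, 229 and 200.4, so that on this scale the WT libraries lay within the range of the *Txnip*-/- libraries. The level was 215 ± 29.4 CPM against 216 ± 14.5 CPM (SD, n = 3 each), a log2 fold change of -0.012 with a 95% interval of -0.23 to 0.21 (adjusted p = 0.98, edgeR). The sign of this value was not stable under the alternatives.

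*Procr* (chromosome 2, 155751117 to 155755471), whose protein presents protein C to the thrombin-thrombomodulin complex, held 1851, 1770 and 1921 counts in *Txnip*-/- LSECs, against 1724, 1789 and 1368 in WT LSECs. In CPM these were 207, 180 and 205 against 168, 170 and 145. Each *Txnip*-/- library lay above each WT library after scaling, by a small step between *Txnip*-/- replicate 2 and WT replicate 2, whose raw counts are in the reverse order. Without normalization factors the genotypes overlapped, and 4 of the 8 genes were then without overlap. The mean was 197 ± 14.8 CPM against 161 ± 14.2 CPM, a log2 fold change of 0.29 with a 95% interval of 0.086 to 0.50 (unadjusted p = 0.00837, adjusted p = 0.205, edgeR), which is not a call. With WT replicate 3 alone as the reference, 1 library with no spread of its own, the log2 fold change was 0.45. Protein S (*Pros1*), the cofactor of activated protein C, was high in these cells and had 710 ± 73.5 CPM in *Txnip*-/- against 833 ± 6.41 CPM (log2 fold change of -0.23, adjusted p = 0.263, edgeR).

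*Tfpi* (chromosome 2, 84432855 to 84476775), whose Kunitz-type protein inhibits factor Xa and the tissue factor complex, held 808, 786 and 666 counts in *Txnip*-/- LSECs, against 918, 800 and 861 in WT LSECs. The ranges overlapped, with *Txnip*-/- replicate 3 the lowest library. The level was 80.5 ± 9.51 CPM against 85.5 ± 8.13 CPM, a log2 fold change of -0.087 with a 95% interval of -0.34 to 0.16 (adjusted p = 0.866, edgeR). Its related inhibitor gene *Tfpi2* had 54.9 ± 3.41 and 49.2 ± 4.59 CPM (adjusted p = 0.703, edgeR).

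**Figure D2:**
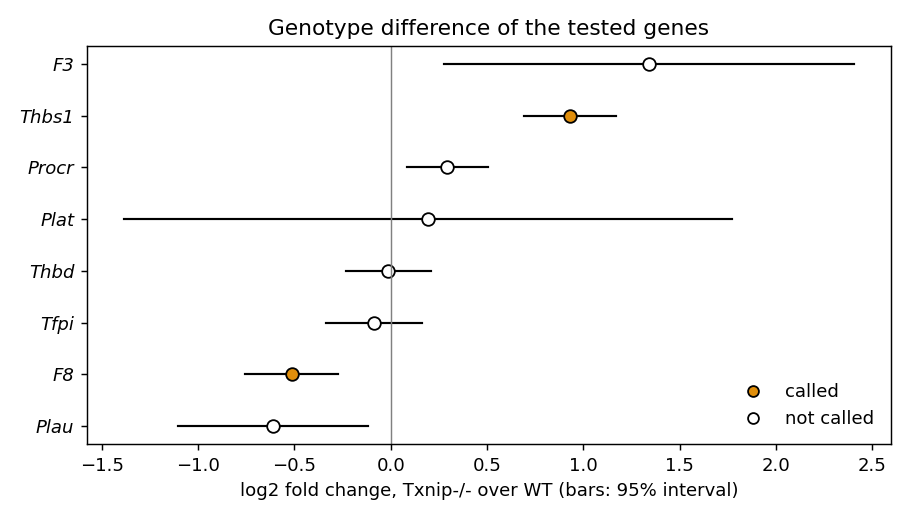
Log2 fold change of the 8 tested genes, *Txnip*-/- over WT, with 95% intervals from edgeR; filled points passed an adjusted p of 0.05 and a 1.3-fold change. *Thbs1* (0.93) and *F8* (-0.51) are filled, the intervals of *F3*, *Procr* and *Plau* lie to one side of 0 without a call, and that of *Plat* runs from -1.39 to 1.77.

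Ratios of raw counts within a library do not depend on how libraries are scaled, and that of *F3* to *Tfpi* sets the RNA of an initiator against that of its inhibitor. The counts of *F3* per 100 counts of *Tfpi* came to 3.96, 5.85 and 7.21 with the deletion, against 1.96, 2.25 and 1.97 in WT LSECs. The *Txnip*-/- libraries were all above the WT libraries in this ratio, and spread more. It rests on 17 to 48 counts of *F3* per library, and the part of other cell types in them was not tested. The ratio of *Procr* to *Thbd* was 1.09, 0.870 and 0.832 in *Txnip*-/- and 0.762, 0.745 and 0.722 in WT libraries, again without overlap. The ratio of *Thbs1* to *F8*, chosen after the values were seen, was 1.93, 2.33 and 1.80 against 0.639, 0.824 and 0.770. A ratio shows that a pair changed unequally and not which member changed. With 3 libraries against 3, these ratios were given as descriptions with no test. After scaling, *F3*, *Procr*, *Thbs1* and *F8* already separated the genotypes on their own, so the ratios are no independent evidence.

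**Figure D3:**
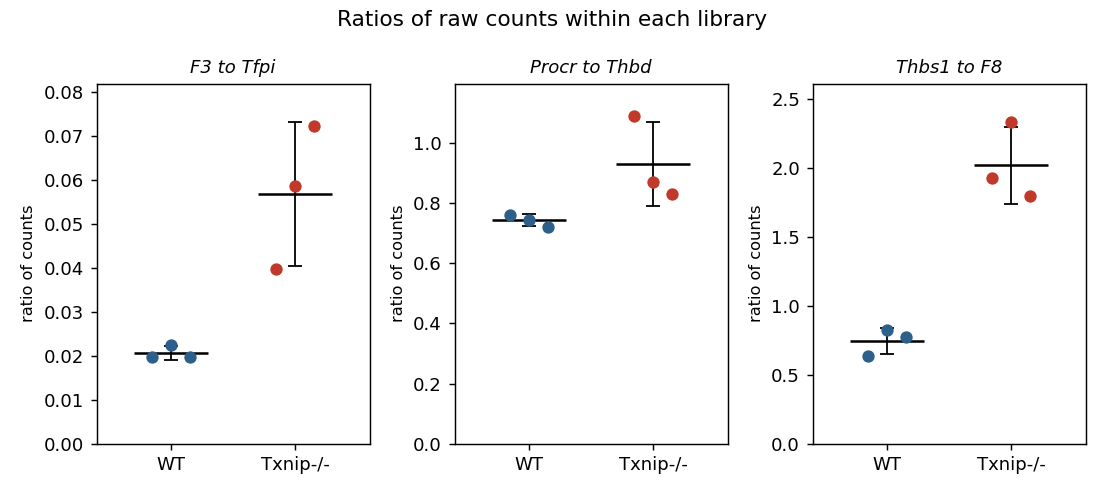
Ratio of raw counts in each library for *F3* to *Tfpi*, *Procr* to *Thbd* and *Thbs1* to *F8*, with 1 point per library, lines at the means and bars of 1 SD (n = 3 per genotype). In all 3 panels the *Txnip*-/- points lie above the WT points, for *Thbs1* to *F8* at 1.80 to 2.33 against 0.639 to 0.824.

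Of the plasminogen activators, urokinase was the more abundant. *Plau* (chromosome 14, 20836660 to 20843385) held 147, 100 and 154 counts in *Txnip*-/- LSECs, against 230, 178 and 250 in WT LSECs. In CPM these were 16.4, 10.2 and 16.5 against 22.4, 17.0 and 26.4, so the groups did not overlap, although *Txnip*-/- replicates 1 and 3 came close to WT replicate 2. The mean was 14.4 ± 3.61 CPM against 21.9 ± 4.76 CPM, a log2 fold change of -0.61 with a 95% interval of -1.10 to -0.12 (unadjusted p = 0.0178, adjusted p = 0.289, edgeR), which is not a call. Macrophages are known to express *Plau*, and the Kupffer cell genes given above were lower in the same libraries. Their part in the *Plau* value was not tested. *Plat* (chromosome 8, 22757727 to 22782844) had 11, 10 and 16 counts against 10, 16 and 9, close to the limit of the filter on low counts. The groups overlapped, and the 95% interval of its log2 fold change (0.19) ran from -1.39 to 1.77, an interval that holds a 2-fold rise, a 2-fold fall and no change.

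Of the other genes of the plasminogen system, 7 of the 11 described could be tested, and 1 of them, *Lrp1*, was called. *Lrp1* encodes an endocytic receptor that takes up plasminogen activators bound to their inhibitors, and also factor VIII. It held 88, 86 and 50 counts in *Txnip*-/- LSECs, against 241, 191 and 250 in WT LSECs, without overlap. The mean fell from 22.7 ± 4.18 to 7.98 ± 2.34 CPM (log2 fold change of -1.51 with a standard error of 0.25, edgeR adjusted p = 0.00313), a call that was kept in every alternative run. Macrophages and stellate cells are known to express *Lrp1*, and the Kupffer cell genes were lower and the stellate cell genes higher in the same libraries, whose part was not tested. *Anxa2*, a docking protein for plasminogen and the most abundant gene of the list, had 556 ± 44.5 CPM and 454 ± 85.4 CPM (log2 fold change 0.29, adjusted p = 0.291, edgeR), its partner *S100a10* had 209 ± 8.06 CPM and 198 ± 11.5 CPM (adjusted p = 0.831, edgeR), and *Plaur*, the urokinase receptor, had 26.6 and 24.3 CPM (adjusted p = 0.868, edgeR).

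**Figure D4:**
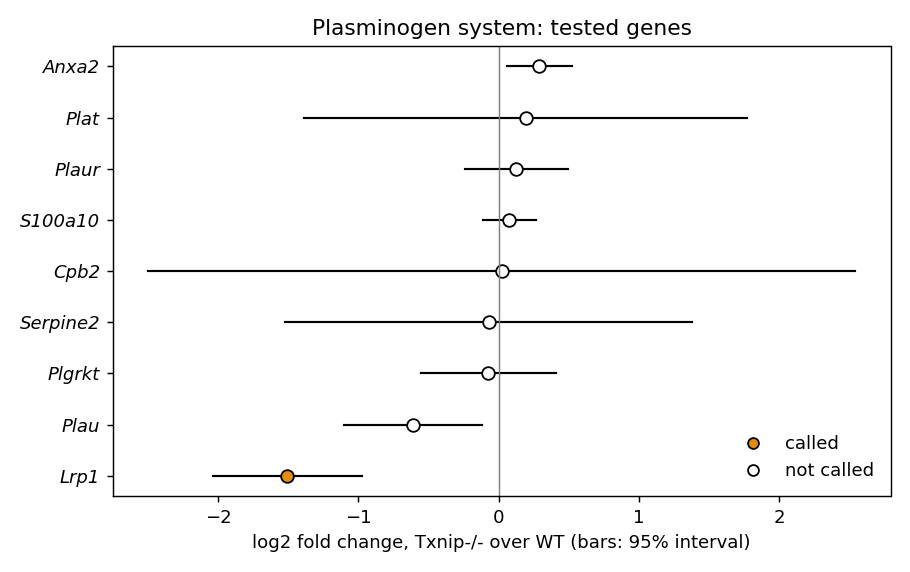
Log2 fold change, *Txnip*-/- over WT, of the 7 tested genes of the plasminogen list with *Plat* and *Plau*, with 95% intervals from edgeR; filled points are called. *Lrp1* (-1.51) is filled, and *Plau* (-0.61) is the lowest of the genes not called.

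*Thbs1* (chromosome 2, 118111876 to 118127133) held 956, 1255 and 982 counts in *Txnip*-/- replicates 1, 2 and 3, against 583, 660 and 552 in the WT replicates. In CPM these were 107, 128 and 105 against 56.7, 62.9 and 58.4. The WT libraries were close together, and the lowest *Txnip*-/- library was far above the highest of them. Its mean level rose from 59.3 ± 3.17 to 113 ± 12.8 CPM (log2 fold change of 0.93 with a standard error of 0.11 and a 95% interval of 0.69 to 1.17, edgeR adjusted p = 0.000108), the 27th smallest p of all tested genes. Dropping any 1 of the 6 libraries left the call in place, with log2 fold changes of 0.84 to 0.98. The rise of *Thbs1* was already known from an earlier analysis of these libraries when the genes were chosen, so its direction is not independent evidence. Stellate cells, platelets and endothelium of larger vessels are known to express *Thbs1*, and their summed markers are given above. The part of these cells was not tested.

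Of the thrombospondin family and its receptors, 4 of 8 genes could be tested and none was called by edgeR as reported, while DESeq2 called *Cd36*. *Thbs3* and *Thbs4* had 0 counts in 5 of the 6 libraries, with 7 and 1 in WT replicate 2, *Comp* had 0 in all 6, and *Thbs2* had 0 to 9. *Cd47*, a receptor of thrombospondin-1, had 438 ± 22.6 CPM in *Txnip*-/- against 482 ± 23.6 CPM (log2 fold change of -0.14, adjusted p = 0.559, edgeR). *Cd36*, the receptor behind the antiangiogenic action of thrombospondin-1 and a fatty acid transporter, had 304, 471 and 406 counts in *Txnip*-/- and 596, 705 and 567 in WT libraries, without overlap. Its level was 41.8 ± 7.17 CPM against 61.7 ± 4.82 CPM (log2 fold change -0.56, adjusted p = 0.0599, edgeR), which is not a call, while DESeq2 gave an adjusted p of 0.0231. With edgeR it was also called with no normalization factors, with no filter, with a filter of a mean of 50 counts and without WT replicate 3 (adjusted p = 0.0337, 0.00642, 0.0465 and 0.0425). The Kupffer cell genes given above were lower in the same libraries, and the part of other cell types in the *Cd36* value was not tested.

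**Figure D5:**
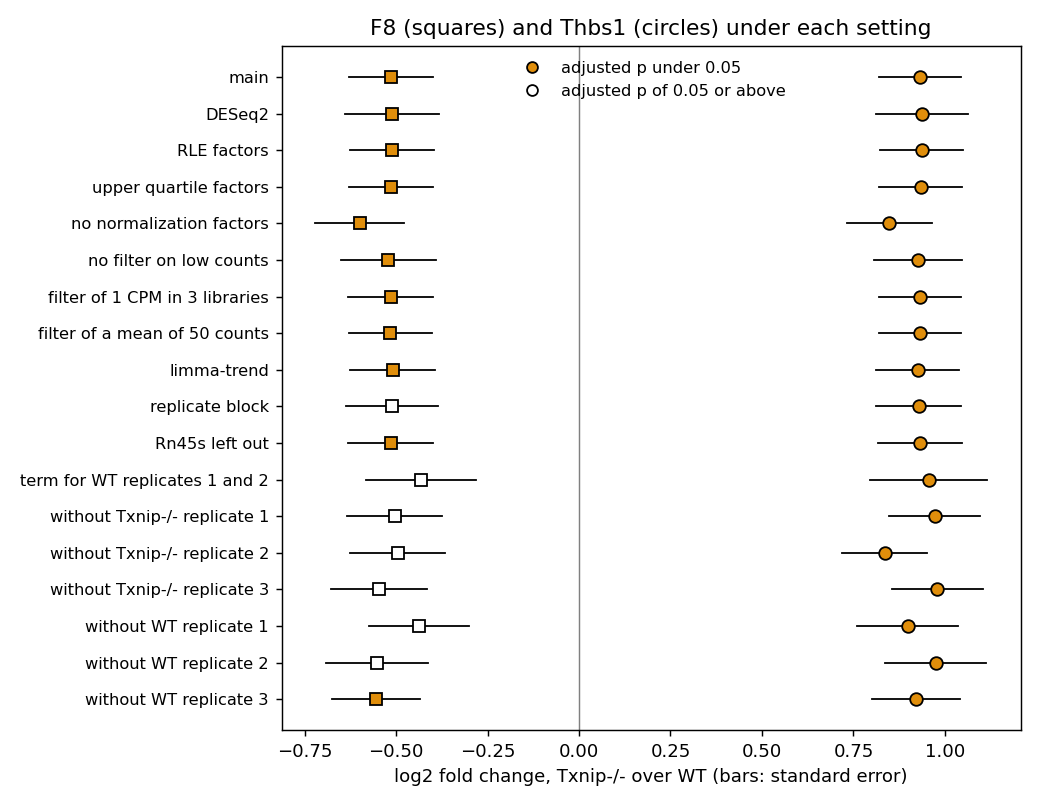
Log2 fold change of *F8* (squares) and *Thbs1* (circles), *Txnip*-/- over WT, in the fit reported here ("main") and in each alternative, with bars of 1 standard error; filled symbols have an adjusted p under 0.05. All *Thbs1* symbols are filled (0.84 to 0.98), while *F8* stays below 0 throughout and is open in 7 alternatives.

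The order of the levels differed between the genotypes at *Thbs1*. In WT LSECs the means ran from *Thbd* (216 CPM) through *Procr* (161), *Tfpi* (85.5), *F8* (80.3), *Thbs1* (59.3), *Plau* (21.9), *F3* (1.75) and *Plat* (1.15) to *Vwf* (0.11), and of these neighbours only *Tfpi* and *F8* overlapped between libraries. In *Txnip*-/- LSECs *Thbs1* (113 CPM) stood above *Tfpi* (80.5) and *F8* (56.2), and the neighbours whose libraries overlapped were *Thbd* with *Procr* and *Plat* with *Vwf*.

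None of the remaining related lists held a call by edgeR or DESeq2. Of 14 circulating coagulation factors, most of them products of hepatocytes, 13 were below the filter. *Fgb*, a fibrinogen chain, was tested and had 2.59 ± 0.84 CPM in *Txnip*-/- and 1.61 ± 1.36 CPM in WT LSECs (adjusted p = 0.831, edgeR). Of the thrombin receptors, *F2r* alone was tested and had 378 ± 17.5 CPM against 412 ± 19.6 CPM (adjusted p = 0.619, edgeR). The genes that handle factor VIII and VWF had 8 tested and 0 called, among them *Lman1*, which carries factor VIII out of the endoplasmic reticulum, with 261 ± 14.6 CPM against 263 ± 9.13 CPM (log2 fold change -0.0097, adjusted p = 0.981, edgeR), and *Mmrn2*, an endothelial matrix glycoprotein, with 819 ± 10.2 CPM against 877 ± 23.4 CPM (adjusted p = 0.665, edgeR). The 5 genes of the antiplatelet surface had 0 calls, and *Ptgs1* and *Nos3* had 21.1 and 11.8 CPM in *Txnip*-/- and 27.1 and 10.7 CPM in WT LSECs. Their log2 fold changes were -0.36 and 0.13 (adjusted p = 0.489 and 0.906, edgeR). By qRT-PCR, the paper reported less *Nos3* mRNA in cultured *Txnip*-deficient LSECs, a fall not seen in these libraries. Over all 7 lists, 29 of the 62 genes described were tested, with 13 log2 fold changes above and 16 below 0, a median of -0.0097 and the 1 call of *Lrp1* by edgeR, against 2 by DESeq2, *Lrp1* and *Cd36*.

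The genes whose levels followed *Thbs1* most closely across the 6 libraries, out of 9330 with a mean of at least 50 counts, were *Slc6a9*, *Noc2l* and *Faf2* (Pearson's r 0.99 on log2 CPM for each, Spearman's rho 0.94, 0.94 and 0.89). For *F8* they were *Atp11a*, *Ctsb* and the LSEC scavenger receptor gene *Stab2* (r 0.99, 0.98 and 0.98, rho 0.94, 0.94 and 0.89). The 6 points share their library and genotype in each gene, and 63 genes for *Thbs1* and 45 for *F8* had an r over 0.95, so these are descriptions only.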

How the data were processed

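RNA of LSECs was measured in 3 *Txnip*-/- and 3 WT libraries by QuantSeq 3′ mRNA-Seq, and all 6 were used. The deposited values are counts: the authors aligned reads with Bowtie2 to mm10 (GRCm38) and, with Bedtools, took uniquely and multiply aligned reads into each gene's count, without normalization. Versions, annotation and use of strand are not given in the sources used here. No exon of another gene in GENCODE M21 overlaps the last 500 bases of the coding transcripts of the 9 genes. Each file has 23282 rows, 44 of which repeat a symbol and were kept apart.

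Tests were run with edgeR 4.0.16 in R 4.3.3 (filterByExpr, which kept 11583 rows, TMM factors, then a quasi-likelihood fit and F test of genotype). P-values were adjusted over all these rows by Benjamini-Hochberg. A gene was called at an adjusted p under 0.05 with a change beyond 1.3-fold, the study's threshold read as a fold change. A standard error is the log2 fold change divided by the square root of F. CPM use the TMM-scaled totals, and 1 count was worth 0.0953 to 0.112 CPM. The floor of 3 counts covers counting error only, since no molecular identifiers are named, while the intervals of fold changes come from the spread between libraries. The script was tested on simulated data. Alternatives were DESeq2 1.42.0, limma 3.58.1 (limma-trend), other factors, filters and thresholds, the replicate number as a block, *Rn45s* left out, a term for WT replicates 1 and 2, and each library left out in turn. Chi-square distances per degree of freedom were 3.93 between WT replicates 1 and 2, and 37.0 and 40.2 between these and WT replicate 3. Among the *Txnip*-/- replicates they were 8.32 to 9.57. All were more than sampling noise, and none were merged.

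The 9 genes, the related lists and the markers were chosen with earlier results of these data known. Named beside the 9 were the called genes and the 2 most abundant tested genes of each related list, and the 3 genes most like each called gene. *Selp*, *Plaur*, *Thbs2*, *Thbs3*, *Thbs4*, *Comp*, *Ptgis* and *Entpd1* were named after their values were seen. One gene of the plasminogen list is not reported here and is left out of the lists' counts. Promoters of RefSeq were at hand for 4 of the 9 genes.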

Additional observations from a re-analysis of the deposited data

How the results depend on the processing

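Of the 9 genes, *Thbs1* kept its direction and its call in every alternative that recomputed it with the 1.3-fold threshold (log2 fold change 0.84 to 0.98), and *F3*, *Procr*, *Tfpi* and *Plau* kept their direction, with no call by an adjusted p. With a log2 threshold of 1.3, 0 of the 9 genes were called higher and 0 lower. With an unadjusted p these counts were 2 and 2, and 1 higher and 3 lower for the other genes, of which 0 were called higher and 1 lower as reported. The other genes called lower were 2, *Lrp1* and *Cd36*, with DESeq2, with no normalization factors, with no filter and with a filter of a mean of 50 counts. Same-numbered libraries did not deviate together (correlations -0.030, 0.017 and -0.047). This gave no sign that the numbers pair them, but 3 libraries per genotype are too few to exclude a pairing. With the replicate block the *F8* log2 fold change was -0.51 (adjusted p = 0.0878, edgeR), so 0 of the 9 were called lower, and with the term for WT replicates 1 and 2, which leaves 1 WT library as the reference, assumed to vary like the others, it was -0.43 and again 0 were called lower. That term turned *Thbd* to 0.099. The block changed no other call of the 9 genes. With each library left out, the number of the 9 called lower ranged from 0 to 1 (1 only without WT replicate 3), the *F8* log2 fold change from -0.55 to -0.44, that of *Thbd* from -0.13 to 0.070 and that of *Plat* from -0.040 to 0.45, and the other genes called ranged from 0 to 1 higher and from 1 to 2 lower, the higher numbers (*Anxa2* and *Cd36* in addition) only without WT replicate 3. *Vwf* stayed below each filter on low counts, and its fit without a filter is not given because both genotypes were near the floor. Over all genes, 167 were called, against 252 with DESeq2, 301 with no filter, 108 with the block, 89 to 112 with 1 library other than WT replicate 3 left out and 301 without it. With no normalization factors 19.4% of the calls were higher, against 35.3%. The cause of these changes was not tested. The counts behind *Vwf*, *Plat* and *F3* were the lowest of the 9 genes, at 0 to 48 per library.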

Other observations

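Prostacyclin synthase (*Ptgis*) and the ectonucleotidase *Entpd1*, both of which restrain platelets, were looked at after their values were seen. *Ptgis* held 48, 62 and 21 counts in *Txnip*-/- LSECs, against 16, 4 and 21 in WT LSECs (log2 fold change 1.74, adjusted p = 0.273, edgeR). *Entpd1* had 44, 61 and 29 against 114, 92 and 55 (log2 fold change -0.85, adjusted p = 0.366, edgeR). Neither passed the test.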
